A study of Sus scrofa with 8 samples.

Results

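AURKB, BIRC5, NCAPH2 and PCNA are genes of the dividing cell, and they were followed here in sorted T cells of colostrum, the first milk, and of blood. The array names 4560 genes, and these 4 are read by 7 of its 43603 probes: 3 for AURKB, 2 for BIRC5, 1 for NCAPH2 and 1 for PCNA, chosen by the gene symbol of the platform annotation or its update through RefSeq. The update kept the symbol of the AURKB, BIRC5 and NCAPH2 probes, and the PCNA probe has its symbol from the platform alone. The 4 genes were chosen with results of these data known: BIRC5 and NCAPH2 were known to be lower in colostral than in blood double positive cells, and which values led to AURKB and PCNA is not given in the sources used here. All differences of the 4 genes are therefore descriptions, and none is given a p-value.

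The samples came from 2 sows of a Large White x Landrace cross. Each sow gave 4 samples, which are CD4+/CD8+ double positive and CD4-/CD8+ single positive T cells (both also CD3+) from colostrum, and the same sorted populations from blood, so every group has 2 samples, 1 from each sow. No treatment is named in the labels. Amplified cDNA from 10 ng of RNA carried Alexa Fluor 3 in every colostrum sample and Alexa Fluor 5 in every blood sample, so that an effect of the dye cannot be told apart from one of colostrum against blood.

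The 4 gene products act at different steps of the cell cycle. PCNA is the ring-shaped clamp that holds DNA polymerases on the template during replication, and it also serves in DNA repair. NCAPH2 is the kleisin subunit of condensin II, which begins to compact chromosomes as mitosis approaches. AURKB is the kinase of the chromosomal passenger complex, which corrects the attachment of chromosomes to the spindle and takes part in cytokinesis. BIRC5, survivin, is a subunit that helps to place that complex on the centromere and belongs by its sequence to the inhibitor of apoptosis family. In mammalian cells, transcripts of AURKB and BIRC5 peak in G2 and mitosis and are scarce in resting lymphocytes. In the pig, mature T cells that carry CD4 together with CD8 are common outside the thymus.

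Levels are quantile-normalized log2 intensities, with a floor at 5.34, the level of the negative-control spots. Background was judged sample by sample, and a probe was above it where it exceeded the 95th percentile of that sample's negative controls, which lay between 6.78 and 7.05 on this scale. Median probe intensities before normalization were 118 to 133 units in the colostrum samples and 27 to 34 in the blood samples. The negative controls had medians of 68 to 81 units in colostrum and 1 to 8 in blood, and 28.9% to 36.1% of probes were above background in a sample. Among 7 T cell genes, 6 or 7 were above background in each sample. CD4 was not measured in blood CD8 single positive cells nor in those of colostrum from sow 1. It was above background (6.94) in colostral CD8 single positive cells of sow 2, which were sorted as CD4-. In colostral double positive cells CD4 was little above the thresholds of 6.89 and 6.96, at 7.13 in sow 1 and 7 in sow 2. In blood double positive cells it was at 9.72 and 8.41. The part of this CD4 difference in the values of the 4 genes was not tested. CD8A was above background in all 8 samples, and CD8B was not measured in the double positive samples of either source. Markers of monocytes, neutrophils and the mammary gland were above background in part: 1 to 4 of 9 mammary or milk genes in a sample, 0 to 3 of 4 monocyte genes, 0 to 2 of 4 neutrophil genes and 1 to 3 of 4 NK cell genes. The B cell gene CD79A was above background in both samples of each CD8 single positive group, in 1 of 2 colostral double positive samples and in 0 of 2 blood double positive samples. The platelet gene GP9 was above background in all 8 samples, at 7.69 to 8.51 in colostrum and 9.09 to 9.55 in blood. PPBP, the other platelet gene with a probe, was not above it in any sample.

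Only PCNA was bright in every sample. NCAPH2 was above background in 6 of 8 samples, the brighter BIRC5 probe in 5, the other BIRC5 probe in 3 and the brightest AURKB probe in 3. The other AURKB probes were above background in 0 samples. By their mean over the 8 samples, the PCNA probe stood at the 97.2nd percentile of all probes, NCAPH2 and the first BIRC5 probe at the 80.8th and 80.7th, the second BIRC5 probe at the 68.3rd and the first AURKB probe at the 63.7th. These 5 passed the filter on dim probes and entered the fit. AURKB probes 2 and 3 stood at the 17.5th and 16.1st percentiles and were left out of it.

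**Figure D1:**
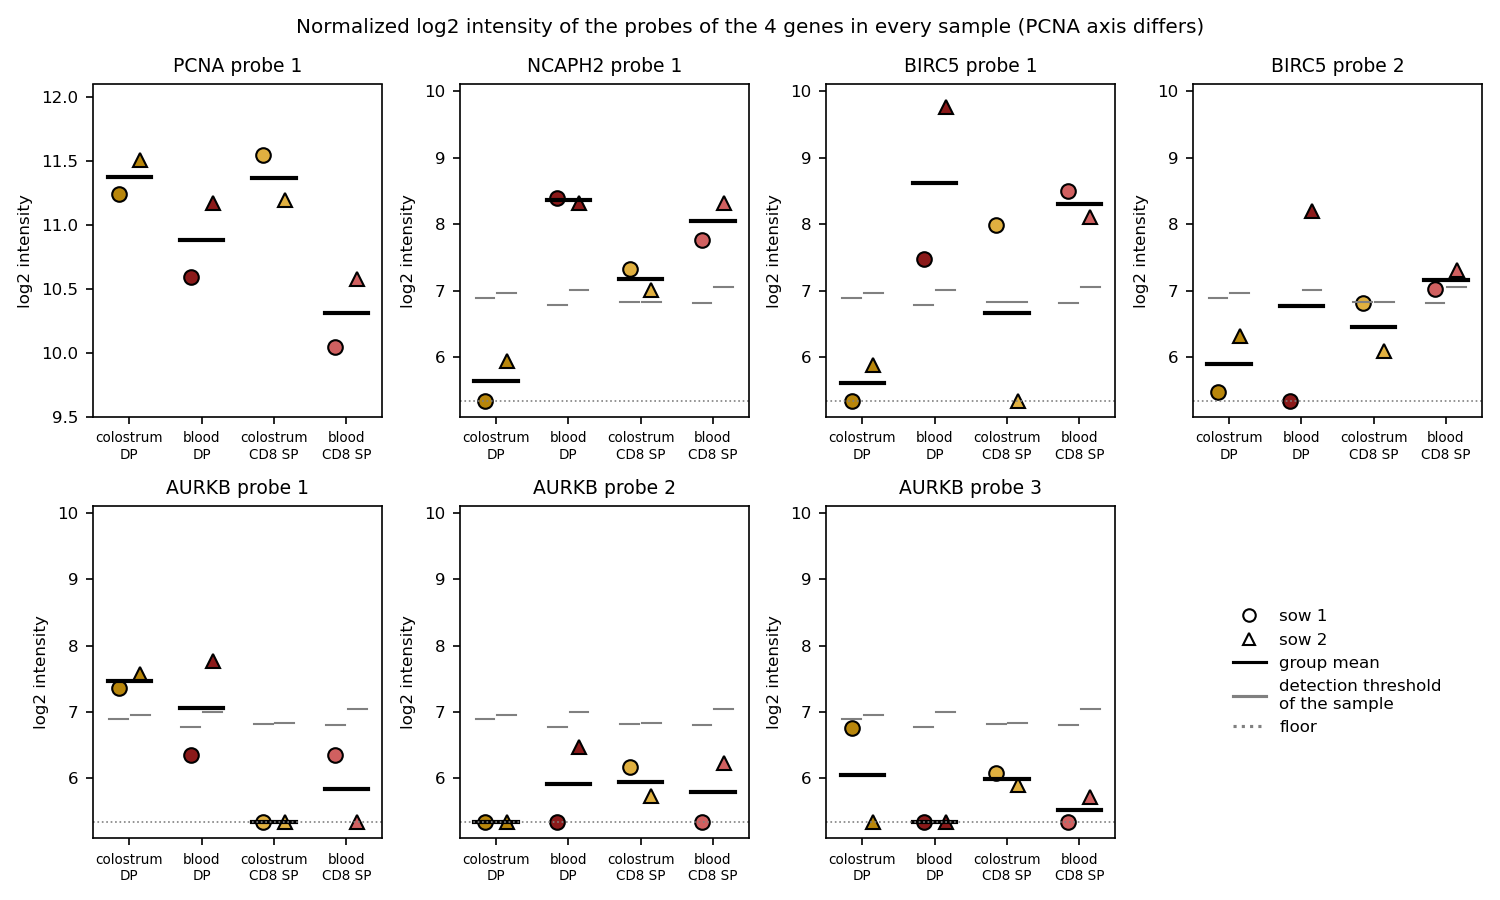
Normalized log2 intensity (vertical axis) of each probe of the 4 genes in double positive (DP) and CD8 single positive (CD8 SP) cells of colostrum and blood, with circles for sow 1, triangles for sow 2, black bars for group means, short grey bars for each sample's detection threshold and a dotted line for the floor of 5.34. PCNA, on an axis of its own that begins above the thresholds, is bright in every sample, NCAPH2 is below them in both colostral double positive samples and above them in the other 6, and AURKB probes 2 and 3 stay below them in every sample.

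NCAPH2, the condensin II gene, was dim in colostral double positive cells and measured in the other 3 groups. Its level was 5.34 in sow 1 and 5.94 in sow 2 in colostral double positive cells, against 8.39 and 8.32 in blood double positive cells. In CD8 single positive cells it was at 7.33 and 7.01 in colostrum, against 7.76 and 8.32 in blood. Both colostrum samples lay below both blood samples in each population. Before normalization the probe had 48 and 106 units in the colostral double positive samples, where negative controls had medians of 75 and 81, against 378 and 297 units in blood double positive cells, where they had 8 and 5. In these bulk samples, fewer cells of a type and less RNA per cell cannot be told apart.

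As group means, NCAPH2 stood at 5.64 ± 0.42 (SD, n = 2) in colostral double positive cells, 8.35 ± 0.05 in blood double positive cells, 7.17 ± 0.22 in colostral CD8 single positive cells and 8.04 ± 0.40 in blood CD8 single positive cells. From high to low the order was blood double positive, blood CD8 single positive, colostral CD8 single positive and colostral double positive, and only the first and second of these overlapped. The difference between colostrum and blood was -2.71 ± 0.51 (SE) in double positive cells, with -3.05 in sow 1 and -2.37 in sow 2. Since the probe was below background in both colostral double positive samples, this is given as at least 2.69-fold lower in colostrum. In CD8 single positive cells the difference was -0.87 ± 0.51, with -0.44 in sow 1 and -1.31 in sow 2. Within colostrum, double positive cells lay below CD8 single positive cells by -1.53 ± 0.51, or at least 1.18-fold, while within blood the difference was 0.31 ± 0.51 and the sows disagreed (0.63 and -0.01). The colostrum-blood difference of double positive cells less that of CD8 single positive cells was -1.84 ± 0.72.

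BIRC5, the survivin gene, was also lower in colostrum by its brighter probe, with a wide spread between the sows. This probe was at 5.34 in sow 1 and 5.87 in sow 2 in colostral double positive cells, against 7.47 and 9.76 in blood double positive cells. In CD8 single positive cells it was at 7.98 and 5.34 in colostrum, against 8.50 and 8.11 in blood. The colostral CD8 single positive sample of sow 2, at the floor, had the casein gene CSN1S1 at 11.38, against 7.36 in that of sow 1. In both samples 3 of 9 mammary or milk genes were above background, with mean levels of 6.86 in sow 2 and 6.43 in sow 1, and CSN2, LALBA, WAP and KRT18 were below it in both; their part in the BIRC5 value was not tested. The 3 low colostral BIRC5 values are below background, and all 4 blood samples are above it. Blood double positive cells of sow 2 had the highest intensity, 986 units before normalization, against 137 units in the same cells of sow 1. The 4 neutrophil markers averaged 8.10 in that sample, against 5.94 in blood double positive cells of sow 1, with S100A9 and MPO below background in both. In blood CD8 single positive cells these markers averaged 7.64 in sow 2 and 5.97 in sow 1, where BIRC5 was at 8.11 and 8.50. The part of the neutrophil markers in the BIRC5 values was not tested.

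The group means of the brighter BIRC5 probe were 5.61 ± 0.37 (SD, n = 2) in colostral double positive, 8.61 ± 1.62 in blood double positive, 6.66 ± 1.87 in colostral CD8 single positive and 8.30 ± 0.28 in blood CD8 single positive cells. From high to low the order was blood double positive, blood CD8 single positive, colostral CD8 single positive and colostral double positive cells. Blood double and blood CD8 single positive cells overlapped, as did both colostral groups. In double positive cells the difference between colostrum and blood was -3.01 ± 0.92 (SE), with -2.13 in sow 1 and -3.88 in sow 2, and is given as at least 3.22-fold lower in colostrum. In CD8 single positive cells it was -1.64 ± 0.92, with -0.52 in sow 1 and -2.76 in sow 2. Without the colostral sample of sow 2 this was -0.32, and without that of sow 1 it was -2.96. Double less CD8 single positive cells was -2.64 in sow 1 within colostrum, while both colostral values of sow 2 were below background and give no direction. Within blood the sows had opposite signs, at -1.03 in sow 1 and 1.65 in sow 2.

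The second BIRC5 probe was dimmer, and in double positive cells of sow 1 it was below background in both sources. Its level was 5.47 and 6.32 in colostral double positive cells, against 5.34 and 8.20 in blood double positive cells. It was at 6.81 and 6.08 in colostral CD8 single positive cells, against 7.02 and 7.31 in blood CD8 single positive cells. The 3 samples in which it was measured were blood CD8 single positive cells of both sows and blood double positive cells of sow 2. In CD8 single positive cells colostrum was at least 1.26-fold below blood. In double positive cells the difference was -0.88 ± 0.83, with -1.88 in sow 2 and no measured direction in sow 1, and without the blood sample of sow 2 it was 0.55. Both BIRC5 probes were highest in blood double positive cells of sow 2, which were 2.28 and 2.86 above the same cells of sow 1. Over the 8 samples the BIRC5 probes had a Pearson correlation of 0.79 with each other, a description over samples that share sows and dyes.

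AURKB, whose kinase works in the same complex as survivin, had another distribution. Its brightest probe was at 7.37 in sow 1 and 7.57 in sow 2 in colostral double positive cells, against 6.36 and 7.77 in blood double positive cells. In CD8 single positive cells it was at the floor of 5.34 in both colostral samples, against 6.35 and 5.34 in blood. So it was measured in colostral double positive cells of both sows and in blood double positive cells of sow 2, and in no CD8 single positive sample. Intensities before normalization were 215 and 246 units in colostral double positive cells, against 60 and 55 units in colostral CD8 single positive cells, all on the same dye.

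The means of this AURKB probe were 7.47 ± 0.14 (SD, n = 2) in colostral double positive, 7.07 ± 1.00 in blood double positive, 5.34 in colostral CD8 single positive (both samples at the floor) and 5.85 ± 0.71 in blood CD8 single positive cells. The 3 groups below colostral double positive cells were, in falling order, blood double positive, blood CD8 single positive and colostral CD8 single positive cells. Both double positive groups overlapped, the CD8 single positive groups were not above background, and within colostrum both double positive samples lay above both CD8 single positive samples. Within colostrum the difference of double from CD8 single positive cells was 2.12 ± 0.61 (SE), with 2.02 in sow 1 and 2.22 in sow 2. As a bound, the double positive level was at least 1.55-fold the higher. Within blood it was 1.22 ± 0.61, from sow 2 alone (2.43), since both blood values of sow 1 were below background, and no bound is given. Without the blood double positive sample of sow 2 it was 0.51. Colostrum less blood was 0.40 ± 0.61 in double positive cells, with opposite signs in the sows (1.01 and -0.21), and -0.30 without the blood sample of sow 1. AURKB probes 2 and 3 lay between 5.34 and 6.77 in all samples and were below background throughout, so they neither repeat nor contradict the first. Across the 8 samples they correlated with it at -0.22 and -0.13.

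PCNA, the replication clamp, was the only one of the genes brighter in colostrum in both populations and both sows, and this direction depends on the scaling. Its level was 11.24 in sow 1 and 11.51 in sow 2 in colostral double positive cells, against 10.60 and 11.17 in blood double positive cells. It was at 11.55 and 11.19 in colostral CD8 single positive cells, against 10.04 and 10.58 in blood CD8 single positive cells. All 4 colostrum samples lay above all 4 blood samples, by little in double positive cells.

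PCNA averaged 11.38 ± 0.19 (SD, n = 2) in colostral double positive, 10.89 ± 0.41 in blood double positive, 11.37 ± 0.25 in colostral CD8 single positive and 10.31 ± 0.38 in blood CD8 single positive cells. Both colostral groups, at the top of the order, overlapped. Both blood double positive samples lay just above both blood CD8 single positive samples. The difference between colostrum and blood was 1.06 ± 0.51 (SE) in CD8 single positive cells (1.50 in sow 1 and 0.61 in sow 2) and 0.49 ± 0.51 in double positive cells (0.65 and 0.34). With each sample scaled by its 75th percentile these differences became -0.34 and -1.31, while the median of all probes was at 0.23 and 0.26, so that PCNA lay 0.58 and 1.57 below that median. Most probes in that median are dimmer than PCNA, which is at the 97.2nd percentile. Other bright genes also fell with this scaling in CD8 single positive cells, STMN1 from 1.94 to 0.50 and XIAP from -0.06 to -1.16. The dim gene MCM3 rose there from 0.60 to 1.38. Within colostrum the populations differed by 0.01 ± 0.51, and within blood by 0.57 ± 0.51, with 0.55 in sow 1 and 0.59 in sow 2.

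**Figure D2:**
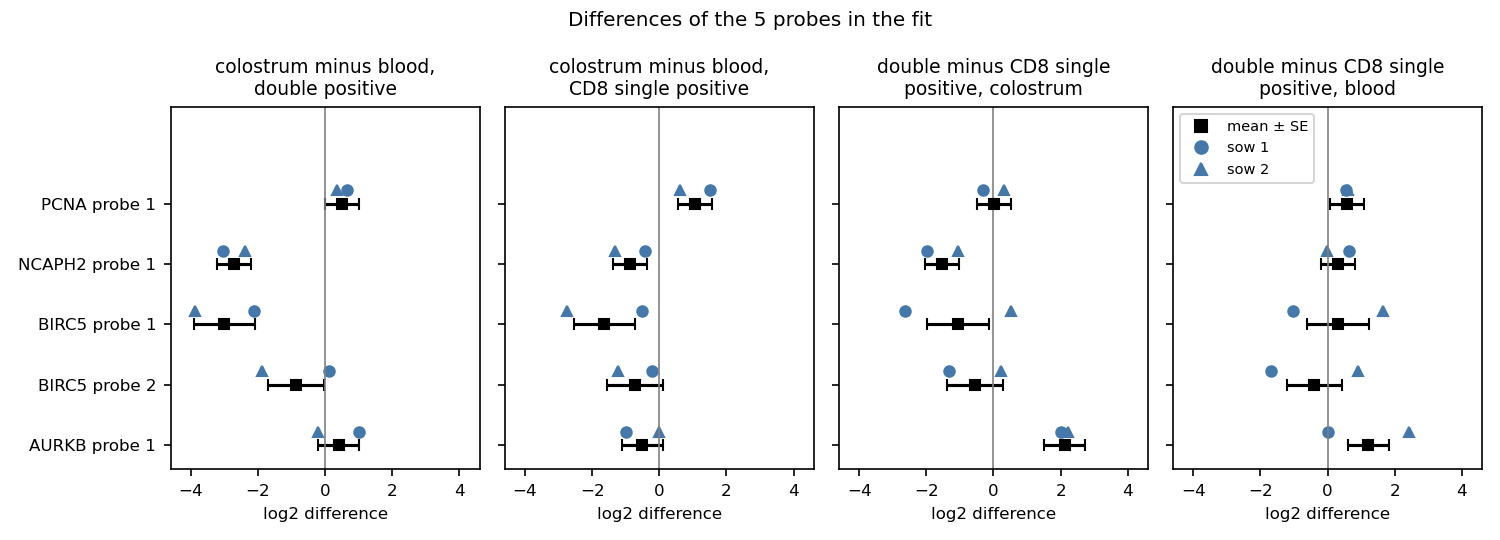
Differences in log2 intensity (horizontal axis) of the 5 probes in the fit in 4 comparisons, with squares for the mean and bars for its standard error, and circles and triangles for the difference within sow 1 and sow 2. NCAPH2 and the first BIRC5 probe lie left of 0 for both sows in both comparisons of colostrum with blood, and AURKB lies right of 0 for both sows within colostrum (2.02 and 2.22).

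In the fit over all 30522 probes that passed the filter, limma called 0 of the 5 probes in any of the 5 comparisons at an adjusted p under 0.05, where the share called among all probes was 0% in each. At an unadjusted p under 0.05, 6.32% of all probes passed between colostral and blood double positive cells, 5.45% between colostral and blood CD8 single positive cells, 7.13% between the populations of colostrum, 5.12% between those of blood and 2.23% in the difference of the colostrum-blood comparisons. Of the 5 probes, 2 were at least 2-fold lower in colostral than in blood double positive cells in both sows, against 3% of all probes, a comparison that chose them. In that comparison 0 of 5 were at least 2-fold higher, against 2.73%. Between colostral and blood CD8 single positive cells 0 of 5 were at least 2-fold lower (2.62% of all probes) or higher (2.65%) in both sows. In the difference between these comparisons the first BIRC5 probe and NCAPH2 were at least 2-fold lower in both sows, against 3.56% of all probes. That difference contains the double positive comparison by which they were chosen, so nothing is read from the count, and in sow 2 both colostral BIRC5 values were below background. In it 0 of 5 were at least 2-fold higher, against 3.33%. Within colostrum, AURKB alone was at least 2-fold higher in double positive cells in both sows, against 3.23% of all probes, and NCAPH2 alone at least 2-fold lower, against 3.28%. In blood, 0 of 5 were at least 2-fold higher (2.51% of all probes) or lower (2.36%) in double positive cells in both sows.

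Samples of the compared groups did not overlap for many probes of the array. Both colostral samples lay below both blood samples for 18.1% of all probes in double positive cells and for 18.4% in CD8 single positive cells, and above them for 16.6% and 16.1%. Among the 5 probes, 2 lay wholly below and 1 wholly above in double positive cells, and 3 lay wholly below and 1 wholly above in CD8 single positive cells. Within colostrum, double positive samples lay wholly below CD8 single positive ones for NCAPH2 (16.3% of all probes) and wholly above for AURKB (17.2%). Within blood they lay wholly above for PCNA and, with sow 1 below background in both populations, for AURKB (16.1%) and wholly below for 0 of 5 (16.6%). With 2 samples a group, a gap between groups is thus common on this array. The replicates are separate animals, and the comparisons share samples: both comparisons of colostrum with blood and both of the populations use the same 8.

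BIRC5 and NCAPH2 had the same order of groups, and AURKB and PCNA each another. Pearson correlations between the leading probes over the 8 samples were 0.80 for BIRC5 with NCAPH2, 0.21 for AURKB with PCNA, 0.02 for AURKB with BIRC5, -0.35 for AURKB with NCAPH2, -0.39 for BIRC5 with PCNA and -0.55 for NCAPH2 with PCNA. The first of these is partly fixed by the choice of BIRC5 and NCAPH2, which were both known to be lower in colostral than in blood double positive cells. The genes most like each member were sought among 2939 others that were above background in at least 2 samples. For PCNA they were BCLAF1 (r = 0.98), INTS6 (0.94) and FOS (0.93). For NCAPH2 they were SAMHD1 (0.97), a deoxynucleotide triphosphate hydrolase, PTK7 (0.96) and CDKAL1 (0.96). For BIRC5 they were ACADS (0.96), the proteasome subunit gene PSMB6 (0.96) and CCS (0.93). For AURKB they were AK7 (0.98), TNMD (0.97) and SH3GL3 (0.97), which were also at or near the floor of 5.34 in colostral CD8 single positive cells. These correlations cover 8 samples that share sows, dyes and background.

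Other genes of chromosome structure were measured in part. Of 20 condensin and cohesin genes, 5 had a named probe and all of these entered the fit. Their median difference between colostrum and blood was -0.41 in double positive cells, or -0.30 without NCAPH2, against 0 over all probes. It was 0.67 in CD8 single positive cells, or 0.98 without NCAPH2, against -0.01 over all probes. limma called 0 of the 5 in either. SMC4, the ATPase subunit that condensin I and II share, was at 7.76 and 7.17 in colostral double positive cells, against 8.72 and 8.11 in blood double positive cells. It was at 9.17 and 8.69 in colostral CD8 single positive cells, against 7.55 and 7.73 in blood CD8 single positive cells. This SMC4 probe thus lay on opposite sides in the populations, -0.95 ± 0.52 in double positive and 1.29 ± 0.52 in CD8 single positive cells, whereas its partner NCAPH2 was lower in colostrum in both. The other 3 SMC4 probes had the same sign in CD8 single positive cells, at 1.41, 1.38 and 1.02, and the opposite sign in double positive cells, at 0.74, 0.86 and 0.42. Within colostrum all of the SMC4 probes were lower in double positive cells, by -1.47 with the tested probe and -0.47, -0.25 and -0.57 with the others. SMC3, an ATPase of cohesin, differed by 0.67 in CD8 single positive and -0.18 in double positive cells, but by -0.47 and -1.68 with 75th percentile scaling, which turned the first sign. Under that scaling SMC4 was at 0.57 in CD8 single positive and -1.72 in double positive cells. NCAPD2 of condensin I was bright in colostral CD8 single positive cells of sow 1 (10.38) and not in those of sow 2 (6.86).

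Replication genes beside PCNA were measured unevenly: POLA2 and DNMT1 were above background in all 8 samples, CDC45 in 7, RFC5 in 4 and POLA1 in 1. Of 55 genes on the list, 8 had a named probe, all in the fit, and limma called 0 of 8 in each comparison. The median difference without PCNA was -0.01 between colostral and blood double positive cells and 0.34 between colostral and blood CD8 single positive cells. MCM3, a subunit of the replicative helicase, and UHRF1, which recruits the maintenance DNA methyltransferase, were above background in 0 samples. POLA2, a subunit of DNA polymerase alpha, was measured in all samples. It differed by 0.61 in double positive cells, with opposite signs in the sows (1.45 and -0.22), unlike PCNA. In CD8 single positive cells POLA2 differed by 0.81 (0.68 and 0.95). With 75th percentile scaling the POLA2 differences were -0.26 and 0.03. DNMT1, the maintenance methyltransferase, differed by -0.01 in double positive and 0.55 in CD8 single positive cells with its brightest probe. Other DNMT1 probes lay on the other side, at -0.86 in double positive cells and at -1.35 and -1.51 in CD8 single positive cells, so its direction is unsettled.

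Among mitotic genes, STMN1, the microtubule-destabilizing protein stathmin, was bright in every sample. It was at 10.85 and 10.57 in colostral double positive cells, against 10.20 and 10.73 in blood double positive cells. It was at 12.32 and 11.64 in colostral CD8 single positive cells, against 10.21 and 9.86 in blood CD8 single positive cells. Colostral CD8 single positive cells thus had the highest values in both sows. The difference between colostrum and blood in CD8 single positive cells was 1.94 ± 0.52 (SE), and the other STMN1 probes gave 2.39, 2.24, 1.87 and 1.60. With 75th percentile scaling it was 0.50. Within colostrum, double positive cells were lower by -1.27 ± 0.52, and the other probes gave -2.26, -1.46, -0.73 and -0.88. Neither passed limma's test after adjustment (adjusted p = 0.895 and 0.676).

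CDK1 and CDC20, the mitotic kinase and an activator of the anaphase-promoting complex, had higher group means in double positive cells, as AURKB had. Their levels were close to background. CDK1 was at 6.44 and 7.49 in colostral double positive cells, against 5.34 and 5.53 in colostral CD8 single positive cells. In blood it was at 6.06 and 7.30 in double positive cells, against 5.62 and 5.34 in CD8 single positive cells. CDC20 was at 6.69 and 7.36 in colostral double positive cells, against 6.03 and 5.34 in colostral CD8 single positive cells, and in blood at 6.95 and 7.03, against 5.70 and 5.34. Both were above background in no CD8 single positive sample. CDK1 was above it only in double positive cells of sow 2, in colostrum and in blood. CDC20 was above it in both blood double positive samples, but in colostral double positive cells only in sow 2. AURKA, the spindle pole relative of AURKB, had the opposite distribution in colostrum: 6.20 and 5.48 in double positive cells, against 7.41 and 8.43 in CD8 single positive cells, or at least 1.99-fold lower. The other AURKA probe had the same sign there (-0.98). The kinesin gene KIF15 was likewise lower in colostral double positive cells (-1.46 ± 0.60), with 1 of 2 CD8 single positive arrays above background.

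Of the 55 mitosis and G2 genes, 17 had a named probe and 15 entered the fit. Between the populations of colostrum, 5 of these 15 had an unadjusted p under 0.05 (AURKA, KIF15 and STMN1 lower and CDK1 and CDC20 higher in double positive cells), against 7.13% of all probes, and 0 passed after adjustment. At the same unadjusted p, 0 of 15 passed between colostral and blood double positive cells, against 6.32% of all probes. In each of the other 3 comparisons 1 of 15 passed. The shares of all probes there were 5.45% between colostral and blood CD8 single positive cells, 5.12% between the populations of blood and 2.23% in the difference. Between the populations of colostrum the median difference of the 15 genes was -0.19, against 0.00 over all probes. Between colostrum and blood the median was 0.24 in double positive and 0.19 in CD8 single positive cells. Of the chromosomal passenger complex, 3 of 4 genes had a probe. INCENP, its scaffold, was above background in 2 samples: 7.83 in colostral and 7.36 in blood double positive cells, both of sow 1.

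**Figure D3:**
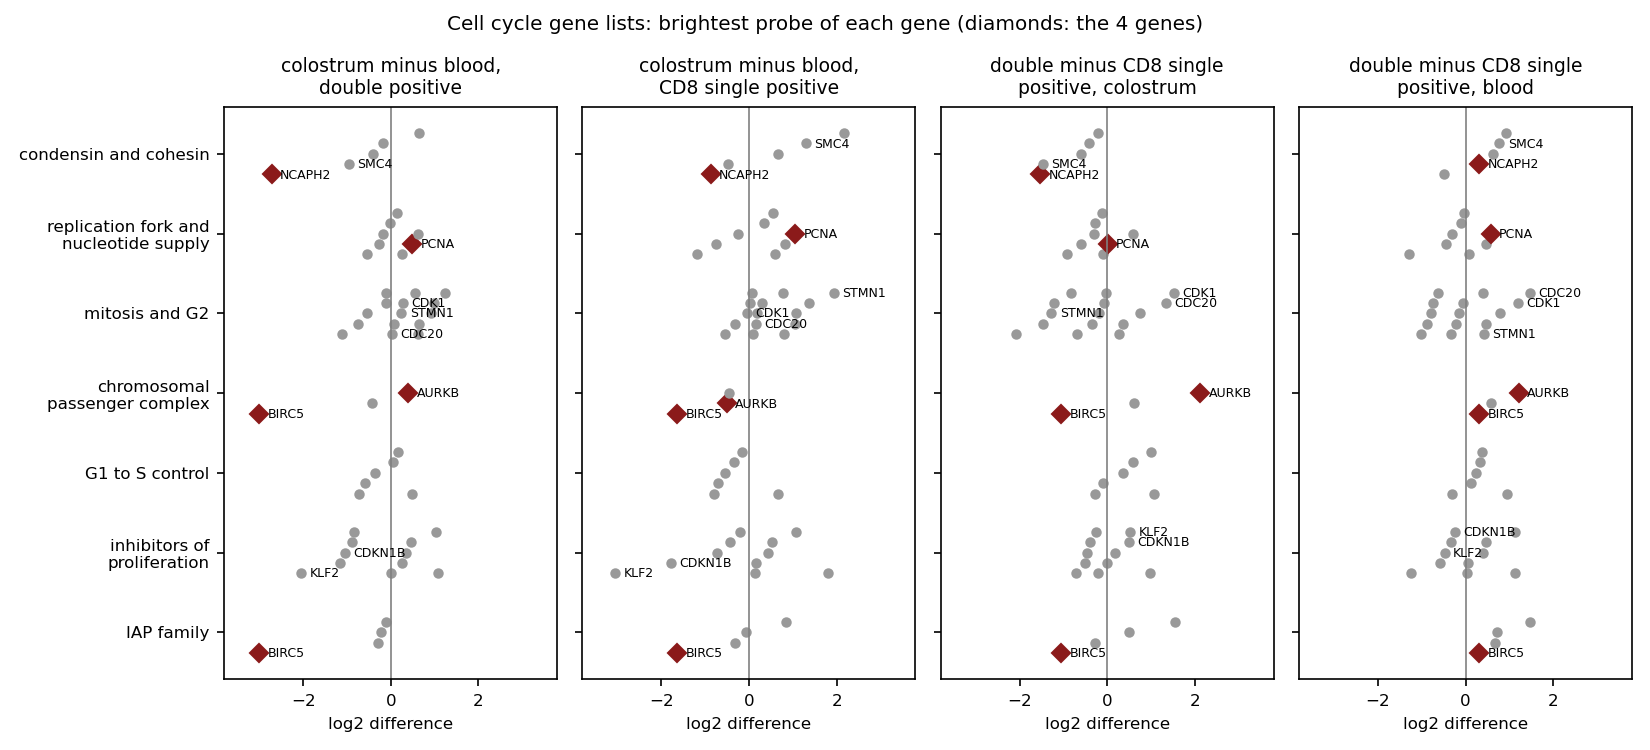
Difference in log2 intensity (horizontal axis) of the brightest probe of each gene in the fit, by gene list (rows) and comparison (panels), with diamonds for AURKB, BIRC5, NCAPH2 and PCNA and some other genes labelled. BIRC5 and NCAPH2 are the leftmost points of their lists between colostral and blood double positive cells, the comparison by which they were chosen. In that comparison the 15 genes of the mitosis list lie on both sides of 0 (10 higher and 5 lower in colostral double positive cells).

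Inhibitors of proliferation were measured in larger part. Of 20 inhibitors of proliferation, 12 had a probe and 11 entered the fit, with 0 called and medians of 0.02 in double positive and 0.15 in CD8 single positive cells between colostrum and blood. KLF2, which helps to keep T cells quiescent, was at 9.54 and 9.59 in colostral double positive cells, against 11.35 and 11.88 in blood double positive cells. In CD8 single positive cells KLF2 was at 8.96 and 9.11 in colostrum, against 12.40 and 11.77 in blood. The KLF2 difference was -2.05 in double positive and -3.05 in CD8 single positive cells. CDKN1B, the cyclin-dependent kinase inhibitor p27, was at 8.72 and 8.85 in colostral CD8 single positive cells, against 10.47 and 10.66 in blood CD8 single positive cells, a difference of -1.78 ± 0.51. In double positive cells CDKN1B differed by -1.04, with -0.45 in sow 1 and -1.63 in sow 2. GADD45A, a stress-induced growth arrest gene, was at 9.27 and 9.99 in colostral CD8 single positive cells, against 7.52 and 8.12 in blood CD8 single positive cells. The size of these differences depends on the scaling. With 75th percentile scaling, the GADD45A difference in CD8 single positive cells was 0.98, against 1.81 as reported. Those of KLF2 and CDKN1B there were -4.43 and -2.98. CDKN1A, the inhibitor p21, was higher in blood double positive cells than in blood CD8 single positive cells, at 10.95 and 10.87, against 9.85 and 9.72. Its other probes gave differences of 1.04 and 0.30 there, against 1.13 with this one. Of 20 genes of G1 to S control, 7 had a probe and 6 entered the fit, with 0 called and medians of -0.16 in double positive and -0.45 in CD8 single positive cells between colostrum and blood. MYC, which drives entry into the cycle, differed by -0.58 in double positive and -0.35 in CD8 single positive cells, and by -1.81 and -1.32 with 75th percentile scaling. The other MYC probes gave -1.24 and -0.39 in double positive cells and -0.22 and -0.09 in CD8 single positive cells.

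BIRC5 was set beside the other genes of the inhibitor of apoptosis list. Of the 8 genes on this list 4 had a probe, BIRC5 among them. XIAP, a direct caspase inhibitor, was bright in all samples and differed by -0.29 between colostral and blood double positive cells and by -0.06 between colostral and blood CD8 single positive cells. With 75th percentile scaling these XIAP differences were -1.82 and -1.16. BIRC6 was above background in 2 samples. DIABLO, which antagonizes these inhibitors, was at 7.81 and 8.15 in colostral double positive cells, against 6.10 and 6.74 in colostral CD8 single positive cells, a bound of 2.22-fold or more. In blood DIABLO was at 7.48 and 8.94 in double positive cells, against 5.34 and 8.15 in CD8 single positive cells.

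**Figure D4:**
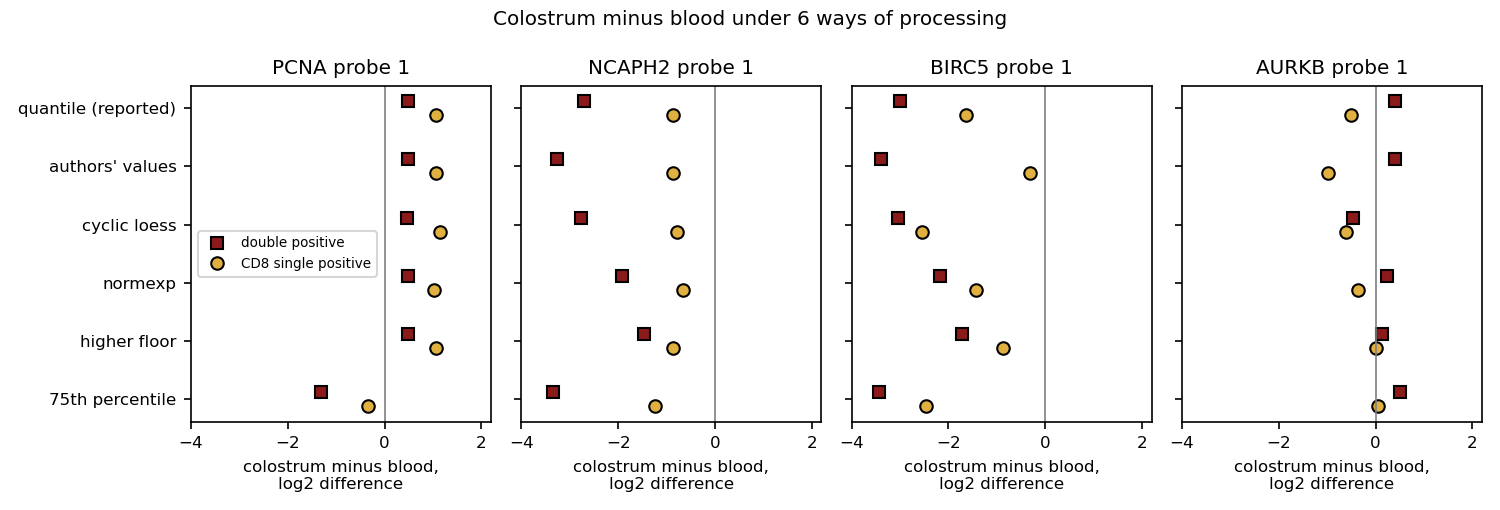
Colostrum minus blood in log2 intensity (horizontal axis) of the leading probe of each gene under the reported processing and 5 alternatives (rows), with squares for double positive and circles for CD8 single positive cells. NCAPH2 and BIRC5 stay left of 0 in each row, PCNA moves left of 0 with 75th percentile scaling, and AURKB crosses 0 in both populations.

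The processing of the samples, which includes the scaling and the floor, thus touched the genes unequally. NCAPH2 differed between colostral and blood double positive cells by -1.46 to -3.34 and the first BIRC5 probe by -1.72 to -3.43 over the alternatives that kept all samples. AURKB in double positive cells took -0.47 with cyclic loess. The AURKB difference within colostrum, where both samples carried the same dye, was 0.57 to 2.90 over the same alternatives. The ends of -1.46 for NCAPH2 and 0.57 for AURKB came from a floor raised to the detection threshold, and not from a scaling.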

How the data were processed

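Sorted porcine T cells of colostrum and blood were profiled on 1 array design, in 8 samples of 4 groups. Per the labels' protocols, RNA was amplified and labelled. The labels title 4 samples both double and single positive, and these were taken as double positive. The authors' deposited sample files hold 1 intensity per spot in whole numbers (45220 spots, some below 0). What scanner and background correction they used is not given in the sources used here. A matrix that the authors deposited beside them holds log2 values of 43603 probes with a median of 6.32 in every column. Intensities of repeated spots were averaged, the samples were quantile normalized, a floor was set at 40.6 units (the mean normalized median of 153 negative-control spots), and log2 was taken. Of the values in the fit, 14.1% lay at the floor. The array annotation gave 10278 probes 1 symbol each and left 33325 unnamed; 6051 matched a RefSeq accession of Sscrofa11.1.

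Linear models of limma (3.58.1, under R 4.3.3) took in the 30522 probes whose mean was above the 30th percentile, with 4 group means and no sow term (degrees of freedom: 4 residual, 6.18 prior). Adjustment was by Benjamini-Hochberg over all of them, with calls at 0.05. A gene of a list was read through its brightest probe. A probe below background on both arrays of a group is given as a bound, the brighter mean against the mean of the higher of threshold and value. Every probe of the 4 genes is described. In each list and comparison, up to 3 genes with the largest difference of 1 sign in both sows were eligible for naming, with further list genes named after their values were seen, and the 3 most correlated genes of each member. The members and lists were chosen with earlier results of these data known. Same-numbered samples were taken to come from the same sow. Their deviations from the group means correlated at 0.31 and 0.28 between colostrum and blood of 1 population. Across populations, same-numbered samples correlated only between -0.0047 and 0.04, so these values show no sow effect common to both populations. Whether colostrum and blood samples of 1 population share something besides the sow was not tested. The 17 alternatives fixed beforehand and 1 added later are given in the closing section. No probe, promoter or protein sequences and no genome coordinates were used here.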

Additional observations from a re-analysis of the deposited data

How the results depend on the processing

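limma called 0 probes in each comparison, and the smallest adjusted p was 0.186, 0.70, 1.00, 0.392 and 0.703 for colostrum against blood in CD8 single positive and in double positive cells, their difference, and double against CD8 single positive cells in colostrum and in blood. Normexp background correction called 6 probes (2 higher and 4 lower, KLF2 and LEF1 among the lower), 1 probe, 0, 1 and 1 probe (CCL5 in both of the last). A random block for each pair of samples of 1 sow and population called 1 unnamed probe in CD8 single positive cells, and the higher floor, added after the data were seen, 4 probes in double positive cells. Leaving out 1 sample gave 0 to 2 calls in CD8 single positive cells and 0 to 1 between the populations of colostrum, both without colostral CD8 single positive cells of sow 2, and 0 elsewhere. With the sow as a replicate block 0 probes were called in each comparison, and it changed no call. None of the called probes was one of the 4 genes.

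Of 630 differences of the 7 probes under 18 alternatives, 580 kept the sign of the reported value. This count is no measure of robustness. Alternatives that changed only the model, such as the sow as a block, left the group means unchanged and kept each sign by construction. The count also includes the AURKB probes left out of the fit, which were below background in every sample and have no measured direction. NCAPH2 kept the reported sign in all of its differences, and the first BIRC5 probe in all of its differences between colostrum and blood. The authors' log2 values gave -0.32 for the first BIRC5 probe in CD8 single positive cells, with 1 colostral value (sow 2) empty and that group resting on 1 sample. Values near background limit AURKB, BIRC5 and NCAPH2: with the higher floor, AURKB within colostrum was 0.57 and NCAPH2 in double positive cells -1.46. The cause of the change of PCNA with 75th percentile scaling was not tested. The small number of arrays limits the precision.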
